A study of Rattus norvegicus with 9 samples.

Results

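The matrix metalloproteinases Mmp2, Mmp9 and Mmp14 and the tissue inhibitors Timp1, Timp2 and Timp3 were followed in rat lung. Every probe set of the array annotated to one of these 6 genes was taken, which gave 8 of the 8799 probe sets in the table (6 of the 4737 genes with a probe set of their own). Mmp2 and Timp1 had 2 probe sets each. All 8 were bright enough to be tested, and no probe set named a member together with another gene.

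Total RNA of whole rat lung was hybridised to 9 arrays, and 4 groups crossed the way of breathing with the oxygen breathed. In Ven100 the rats were mechanically ventilated with 100% oxygen, in Ven21 they were mechanically ventilated with 21% oxygen, in NonVen100 they breathed 100% oxygen spontaneously, and in NonVen21 they breathed 21% oxygen spontaneously. Each group held 2 samples, lettered a and b, and sample b of Ven100 was read on 2 arrays that were averaged. The sources used here do not give the strain, the age, the ventilator settings or the time of exposure. No label says whether samples a and b are 2 animals, so the spread behind the p-values is that between these samples and may be technical.

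Matrix metalloproteinases are zinc enzymes that cleave collagens, elastin and other proteins outside the cell. Mmp2 (gelatinase A) and Mmp9 (gelatinase B) cut denatured collagen and the collagen of basement membranes, and Mmp2 is made mainly by fibroblasts and other stromal cells while Mmp9 is stored in neutrophils. Mmp14 sits in the plasma membrane and, with Timp2 as an adaptor, removes the propeptide of Mmp2. The Timps bind the active site of these enzymes, and Timp3 is held in the matrix and also inhibits Adam17.

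Values are deposited intensities, on which all arrays shared a trimmed mean of 800.5 to 801.1. Changes are log2 differences ± SE from a limma fit over all 8 samples, and a call is an adjusted p under 0.05. Lung markers were present (7 of 8 listed genes on the array, none at 0, summed 40395 to 92269 over the samples). The groups also differed in marker transcripts of other cell types. T lymphocyte markers (8 of 9 on the array) summed to 23945 and 25843 in Ven21, against 1262 to 2029 in the other samples. Brown fat markers (4 of 5, with Plin1 at or below 0 in every sample) summed to 8749 and 8917 in Ven21, against 409.1 to 2592 elsewhere. Skeletal muscle markers (7 of 9) summed to 24566 and 24054 in NonVen100, against 1845 to 7273 elsewhere. A description line headed as a batch of the lot, with no lot given, stands on 4 arrays (both NonVen21 samples, Ven100 a and 1 array of Ven100 b) and not on the other 5. It splits the groups nearly as the interaction of ventilation and oxygen does, and the fits that take it into account stand beside the results. With the line as a block, the 9 arrays were fitted apart, so both arrays of Ven100 b counted separately in those p-values. Only Ven100 has arrays with and without the line, so the block rests on the arrays of that group.

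By its brighter probe set, U65656_at, Mmp2 was highest in Ven100 and lowest in Ven21 and NonVen100. This probe set read 3571 and 3747 in Ven100, 1592 and 1619 in Ven21, 1728 and 1646 in NonVen100, and 3168 and 2413 in NonVen21. Both Ven100 samples stood above all others, both NonVen21 samples came next, and the NonVen100 samples lay just above those of Ven21. The means were 3659 ± 124 in Ven100, 1605 ± 19 in Ven21, 1687 ± 57.8 in NonVen100 and 2791 ± 534 in NonVen21 (SD, n = 2 each). The 2 arrays of Ven100 b gave 3769 and 3725.

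Mechanical ventilation thus went with opposite changes of Mmp2 at the oxygen levels. At 100% oxygen the ventilated lungs (Ven100) were higher than NonVen100 by 1.10 ± 0.14 (2.14-fold, adjusted p = 0.00234), while at 21% oxygen the ventilated lungs (Ven21) were lower than NonVen21, with a log2 change of -0.77 ± 0.14 (0.586-fold, adjusted p = 0.0123). Oxygen showed the same reversal between ways of breathing. Ven100 exceeded Ven21 by 1.17 ± 0.14 (2.25-fold, adjusted p = 0.00109), and NonVen100 was below NonVen21, with a log2 change of -0.70 ± 0.14 (0.615-fold, adjusted p = 0.0163). The interaction, which is the ventilation change at 100% minus that at 21% oxygen, was 1.87 ± 0.20 (adjusted p = 0.000742).

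Averaged over the other factor, neither effect on Mmp2 was called, at 0.16 (adjusted p = 0.353) for ventilation and 0.23 (adjusted p = 0.126) for oxygen. The increases in Ven100 over NonVen100 and over Ven21 and the interaction were called under all alternatives tried (20, 20 and 18), at 1.01 to 1.14, 1.11 to 1.21 and 1.68 to 2.06. With the lot line as a block the interaction was 1.96 ± 0.35 (adjusted p = 0.0272). The decreases were less firm. With that block the change in Ven21 against NonVen21 was -0.82 (adjusted p = 0.123) and that in NonVen100 against NonVen21 was -0.75 (adjusted p = 0.127). The first lost its call with only the groups compared (adjusted p = 0.0501), and the second without the filter (adjusted p = 0.0517). The first was also lost without either Ven21 sample, and the second without either NonVen100 sample or without NonVen21 a.

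The other Mmp2 probe set, X71466_at, was dimmer and none of its changes was called. It read 592 and 548.2 in Ven100, 541.5 and 538.8 in Ven21, 505.1 and 544.8 in NonVen100, and 640.1 and 557.6 in NonVen21. All Ven100 and NonVen21 samples lay above all Ven21 and NonVen100 samples, as for U65656_at, but by far less. Unlike U65656_at, X71466_at had its highest mean in NonVen21 (598.8), not in Ven100 (570.1). The 2 arrays of Ven100 b gave 556.6 and 539.9, and the lower lay below Ven21 a and NonVen100 b. The interaction of X71466_at was 0.25 ± 0.22 (adjusted p = 0.426). Both signals lay above 302.4, the highest value of the 19 bacterial and yeast control probe sets on any array. Over the 8 samples the log2 values of the probe sets had r = 0.65.

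Pdgfra and Myh11, markers of stromal cells singled out after their values were seen, were likewise higher in Ven100 and NonVen21 than in the other groups. Pdgfra, a receptor of fibroblasts, read 3722 and 3920 in Ven100, 1375 and 2023 in Ven21, 2372 and 1604 in NonVen100, and 3083 and 3126 in NonVen21. Myh11, the myosin of smooth muscle, read 2096 and 2125 in Ven100, 457.8 and 581 in Ven21, 716.8 and 410.1 in NonVen100, and 2385 and 1824 in NonVen21. Other genes of the same lists had other orders. Tagln of smooth muscle was highest in NonVen100 (7941 and 8079) and Des lowest in Ven100 (399.5 and 461.8), while the matrix gene Dcn was lowest in Ven100 (3178 and 3297). The whole fibroblast list (6 of 7 on the array) summed to 29888 and 30022 in Ven100, 23854 and 20612 in Ven21, 29174 and 33282 in NonVen100, and 35424 and 36195 in NonVen21. The smooth muscle list (5 of 5) summed to 14280.3 and 14481 in Ven100 and 17476 and 15873 in NonVen21, against 12786 to 14930.0 in the other samples. Endothelial markers (4 of 7) summed to 5810.2 and 4565 in Ven100, 3889.8 and 4725 in Ven21, 3598.5 and 3612 in NonVen100, and 7385 and 5965 in NonVen21. Ven21 and NonVen100, the groups low in Mmp2, also differed in other tissues. Ven21 had the highest T lymphocyte and brown fat sums, and NonVen100 the highest skeletal muscle sums. The part of all these cells and tissues in the Mmp2 result was not tested. In whole lung RNA, fewer cells of a type and less RNA per cell cannot be told apart. Of 3175 genes, those most like Mmp2 U65656_at over the 8 samples were C1r, a protease of complement (r = 0.987), Il4r (r = 0.983) and Epb41l4b (r = 0.982). For X71466_at they were other genes, Pisd (r = 0.975), Cav1 (r = 0.889) and Drd3 (r = 0.884).

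**Figure D1:**
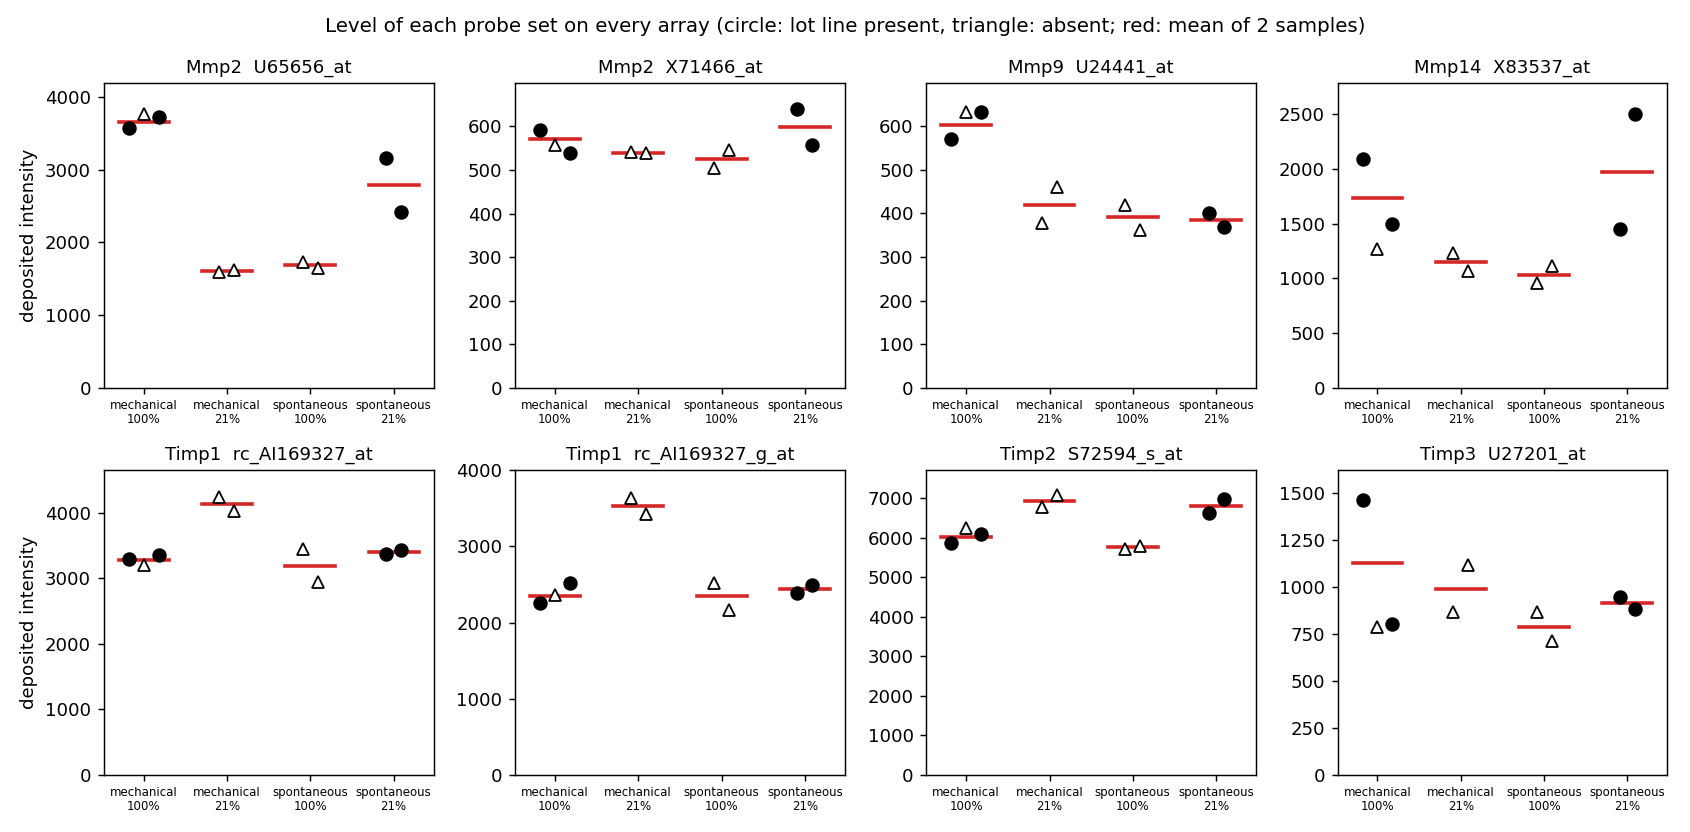
Deposited intensity (vertical axes) of the 8 probe sets on each of the 9 arrays, by group (horizontal axes), with Ven100, Ven21, NonVen100 and NonVen21 from left to right. Circles are arrays with the lot line, triangles arrays without it, and red bars means of the 2 samples. For Mmp2 U65656_at the Ven100 samples stand highest at 3571 and 3747, and the Timp1 panels stand highest in Ven21.

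Mmp9 was highest in Ven100. It read 570.8 and 632.5 in Ven100, 377.2 and 459.6 in Ven21, 418.4 and 363 in NonVen100, and 400.2 and 368.4 in NonVen21. Both Ven100 samples lay above every other sample, and the other 3 groups overlapped. Ven100 was higher than NonVen100 by 0.58 ± 0.18 (1.49-fold, adjusted p = 0.0456). Against Ven21 the difference was 0.49 (adjusted p = 0.0654), against NonVen21 it was 0.60 (adjusted p = 0.0615), and the interaction was 0.47 ± 0.25 (adjusted p = 0.2).

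The Mmp9 call was lost in most alternatives and held in 4 of 20. It was lost without each of the 8 samples in turn, under quantile normalization (0.36, adjusted p = 0.173), under cyclic loess (0.33, adjusted p = 0.209) and with the lot line as a block, where the change was 0.65 (adjusted p = 0.102). The 5 of 9 neutrophil markers on the array were mixed. They summed to 13575 and 13760 in Ven100, 22278 and 22233 in Ven21, 17997 and 20114 in NonVen100, and 19223 and 17656 in NonVen21. The sums were lowest in Ven100 and consist mostly of S100a8 and S100a9. Both genes are bright, and the 99th percentile of intensity was 7111 to 8353 on the Ven100 arrays against 9934 to 14547 elsewhere. The part of scaling in these sums was not tested. RatNP-3b, a neutrophil defensin, read 295.2 and 263.2 in Ven100 and 1117 and 1297 in Ven21, against 37.33 and 83.07 in NonVen100 and 8.829 and 28.74 in NonVen21. All its values outside Ven21 lay below 302.4, the highest value of the bacterial and yeast control probe sets. Defa5 was also highest in Ven21 (511.9 and 341.6), while Cxcr2 was not (211 and 201.7 there, 309.6 and 214.6 in Ven100). The part of neutrophils in the Mmp9 level was not tested.

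Mmp14 was, like Mmp2, higher in Ven100 and NonVen21 than in Ven21 and NonVen100, with a wide spread. It read 2093.5 and 1383.5 in Ven100, 1230 and 1067 in Ven21, 956.6 and 1111 in NonVen100, and 1452.5 and 2499 in NonVen21. Ven100 and NonVen21 overlapped and both lay above Ven21 and NonVen100. Its interaction was called at 1.41 ± 0.39 (adjusted p = 0.0291). None of its simple comparisons was: Ven21 against NonVen21 gave -0.71 ± 0.27 (adjusted p = 0.12), Ven100 against NonVen100 gave 0.70 (adjusted p = 0.0958), and NonVen100 against NonVen21 gave -0.86 (adjusted p = 0.0662). The Mmp14 interaction held in 8 of 18 alternatives, and with the lot line as a block it was 0.54 ± 0.64 (adjusted p = 0.714). It was lost without any one of Ven100 a, Ven21 a, Ven21 b, NonVen100 a, NonVen100 b and NonVen21 b, with values of 1.03 to 1.52. Mmp14 and Mmp2 U65656_at had r = 0.61.

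Timp1 was highest in Ven21. Its probe set rc_AI169327_g_at read 2253 and 2446 in Ven100, 3632 and 3429.9 in Ven21, 2522 and 2169 in NonVen100, and 2392 and 2499 in NonVen21. Both Ven21 samples stood above all others, which overlapped. Ven21 was higher than NonVen21 by 0.52 ± 0.12 (1.44-fold, adjusted p = 0.0267) and higher than NonVen100 by 0.59 ± 0.12 (1.5-fold, adjusted p = 0.0157), and Ven100 was lower than Ven21, with a change of -0.58 ± 0.12 (0.669-fold, adjusted p = 0.00833). Averaged over the way of breathing, 100% oxygen gave -0.32 ± 0.09 (adjusted p = 0.0296). In spontaneous breathing alone the oxygen change was only -0.06 (adjusted p = 0.765), so the average mostly reflects the ventilated groups. The averaged call held in 10 of 18 alternatives. It was lost without Ven100 a, either Ven21 sample, NonVen100 b or either NonVen21 sample. The interaction of this Timp1 probe set was -0.52 ± 0.17 (adjusted p = 0.0557), with -0.58 (adjusted p = 0.0286) under quantile normalization, -0.54 (adjusted p = 0.0458) under cyclic loess and -0.52 (adjusted p = 0.413) with the lot line as a block.

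The second Timp1 probe set, rc_AI169327_at, moved the same way but by less. It read 3294 and 3274 in Ven100, 4238 and 4029.8 in Ven21, 3449 and 2935 in NonVen100, and 3362 and 3426 in NonVen21. Here too Ven21 stood above all other samples. None of its comparisons was called (Ven21 against NonVen21 0.28 ± 0.12, adjusted p = 0.148; Ven100 against Ven21 -0.33, adjusted p = 0.0603). The probe sets share a target record and had r = 0.97 with each other.

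Between Ven21 and NonVen100, which both lack the lot line, the change of rc_AI169327_g_at kept its call within those arrays alone (0.59, adjusted p = 0.03), but it was lost without either Ven21 sample and without NonVen100 b. For Ven21 against NonVen21 the call of this Timp1 probe set was lost with the lot line as a block (0.53, adjusted p = 0.22) and without any of the 4 samples compared. For Ven100 against Ven21 it was lost without Ven100 a (adjusted p = 0.0561) or Ven21 a (adjusted p = 0.0503), and in the 5 arrays without the lot line (adjusted p = 0.058). Ven21 is also the group with the high T lymphocyte and brown fat sums, and the part of those tissues in the Timp1 level was not tested. The genes most like rc_AI169327_g_at were Cd48, a surface protein of lymphocytes and other leukocytes (r = 0.984), Ndufb9 of the respiratory chain (r = 0.980) and Gtf2b (r = 0.973).

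Timp1 was the only inhibitor with a called change as fitted, at probe set rc_AI169327_g_at alone, so its promoter is shown. Promoters of Mmp2, Mmp9 and Mmp14 were not available. The Timp1 window is from RefSeq on build GRCr8 at chrX:3771073-3771372, minus strand, 250 bases before to 50 after the start the table gives. The annotated span of the gene in the same assembly continues upstream of this window. Capitals mark 2 matches to AGGAAG, a motif of ETS factors, and 1 match on the opposite strand to GGGCGG, the motif of Sp1.

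Timp1: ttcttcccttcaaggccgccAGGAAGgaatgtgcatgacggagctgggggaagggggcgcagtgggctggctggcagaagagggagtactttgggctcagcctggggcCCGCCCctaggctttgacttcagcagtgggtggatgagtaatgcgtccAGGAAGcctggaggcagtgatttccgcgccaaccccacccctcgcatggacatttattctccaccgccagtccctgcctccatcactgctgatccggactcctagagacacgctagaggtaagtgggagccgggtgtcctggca

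Of 33469 promoters of this length, 34.5% hold AGGAAG and 33.1% hold GGGCGG on either strand. The letters TGANTCA of AP-1 (in 7.33% of promoters), TGACGTCA of CRE (in 1.83%) and GCGNGGGCG of Egr (in 4.98%) are not in this window. Only these exact letters were searched. Near matches, such as tgagtaa just before the second AGGAAG, were not counted, so the absence of a site is not shown. The table also held Timp2, with 1 match to GGGCGG, and Timp3, with 3 such matches. These matches describe letters and show no binding.

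Timp2 was the brightest of the members and changed little. It read 5858 and 6158 in Ven100, 6784 and 7065 in Ven21, 5719.8 and 5794 in NonVen100, and 6629 and 6982 in NonVen21. All samples that breathed 100% oxygen lay below all that breathed 21%. Averaged over the way of breathing, 100% oxygen gave -0.22 ± 0.07 (adjusted p = 0.0587), which was not called. This Timp2 value was called with the lot line as a block (-0.23, adjusted p = 0.0469), without the filter (adjusted p = 0.0362) and with array s2B alone for Ven100 b (adjusted p = 0.0474), and was -0.02 (adjusted p = 0.789) under quantile normalization. The sign in ventilated lungs depended on scaling: Ven100 against Ven21 was -0.20 (adjusted p = 0.161) as deposited and 0.14 (adjusted p = 0.209) after quantile normalization. Ven100 against NonVen100 was 0.06 (adjusted p = 0.707) for Timp2 as deposited, but was called under quantile normalization (0.38, adjusted p = 0.0167) and cyclic loess (0.31, adjusted p = 0.0495).

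Timp3 had no call. It read 1461 and 791.9 in Ven100, 863.9 and 1113 in Ven21, 865.6 and 708 in NonVen100, and 943.5 and 880.3 in NonVen21. Ven100 and Ven21 overlapped each other and both spontaneous groups, and the Ven100 samples lay further apart than those of any other group. Ven100 against NonVen100 gave 0.44 ± 0.27 (adjusted p = 0.263), and without Ven100 b the Timp3 change was 0.87 (adjusted p = 0.0377).

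**Figure D2:**
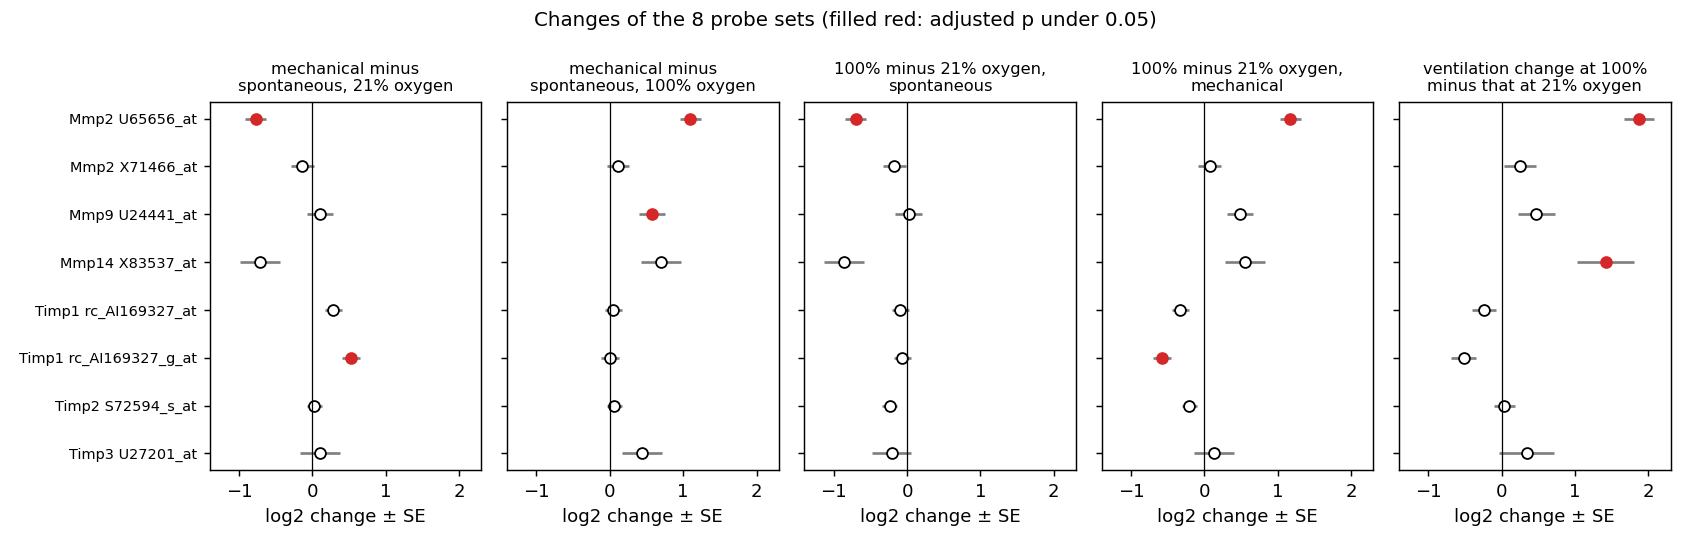
Log2 change with its SE (horizontal axes) of the 8 probe sets (rows) in the 4 simple comparisons and the interaction (panels), with filled red points where the adjusted p was under 0.05. Mmp2 U65656_at lies at 1.10 for ventilation at 100% oxygen and at -0.77 for ventilation at 21% oxygen.

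Of the 8 probe sets, at most 2 were called in any comparison, and each count is given beside the share called of all 5244 tested probe sets. For ventilation at 21% oxygen 2 were called, Timp1 higher and Mmp2 lower, against 14.5% of all. For ventilation at 100% oxygen 2 were called, both higher, against 26.9% of all. For oxygen in spontaneous breathing 1 was called, lower, against 16.8%, and for oxygen in mechanical ventilation 2 were called, Mmp2 higher and Timp1 lower, against 35.1%. The averaged ventilation contrast called 0 with limma (2 at an unadjusted p under 0.05), against 9.10% of all, and the averaged oxygen contrast called 1, against 25.0%. The interaction called 2, against 27.4%. Ven100 against NonVen21 called 0 (2 at an unadjusted p under 0.05), against 14.5%, and Ven21 against NonVen100 called 1, against 16.3%. With 8 probe sets the counts lay between 0 and 2, and no test of the family as a whole was made.

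The median change of the members was 0.28 for ventilation at 100% oxygen, where that of all tested probe sets was 0.13, and 0.06 at 21% oxygen, where that of all was -0.06. For oxygen in mechanical ventilation the medians were 0.10 for the members and 0.14 for all, and in spontaneous breathing they were -0.19 and -0.05. For the interaction they were 0.29 and 0.15. After quantile normalization the medians of all probe sets for ventilation at 100% oxygen, oxygen in mechanical ventilation and the interaction were -0.01, 0.01 and 0.00, and the 99th percentile of intensity on the arrays as deposited was 7111 to 8353 in Ven100 against 9934 to 14547 elsewhere. Under quantile normalization Mmp2 U65656_at was still higher in Ven100 than in NonVen100 by 1.01 (adjusted p = 0.00337).

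Other proteases, inhibitors and partners were taken from a list of 40 genes, of which 25 were on the array and 21 were tested. At 100% oxygen, ventilation went with 3 higher and 4 lower (33.3% of the list, against 26.9% of all probe sets), and at 21% oxygen with 1 higher and 5 lower (28.6% against 14.5%). Oxygen went with 6 higher and 2 lower in mechanical ventilation (38.1% against 35.1%), and with 1 higher and 2 lower in spontaneous breathing (14.3% against 16.8%). The interaction called 3 higher and 2 lower (23.8% against 27.4%). With the lot line as a block, an alternative added after the data were seen, ventilation at 100% oxygen called 2 of these genes, at 21% oxygen 0, oxygen in mechanical ventilation 3, in spontaneous breathing 0, and the interaction 1, Lcn2.

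Tgfb1, a growth factor that drives matrix deposition, was like Mmp2 U65656_at highest in Ven100 and next in NonVen21. It averaged 813.3 ± 92.6 in Ven100, 299.1 ± 62.4 in Ven21, 296 ± 69.4 in NonVen100 and 619.8 ± 152 in NonVen21 (SD, n = 2 each). Its interaction was 2.31 ± 0.35 (adjusted p = 0.0027), and 2.39 ± 0.62 (adjusted p = 0.0825) with the lot line as a block. The Tgfb1 means in Ven21 and NonVen100 lay below 302.4, the highest value of the bacterial and yeast control probe sets. Furin, the convertase that activates Mmp14, was read from the brighter of its 2 probe sets only. It averaged 2211 ± 74.1 in Ven100, 1118 ± 237 in Ven21, 1371 ± 86.5 in NonVen100 and 1847 ± 105 in NonVen21. The Furin interaction was 1.39 (adjusted p = 0.00344), or 1.25 (adjusted p = 0.129) with that block. Lcn2, which binds Mmp9 and slows its breakdown, averaged 4215 ± 308 in Ven100, 2955 ± 265 in Ven21, 2249 ± 177 in NonVen100 and 4069.9 ± 102 in NonVen21. Its interaction was 1.35 (adjusted p = 0.00151), and 1.48 (adjusted p = 0.0428) with that block.

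Mmp8, the collagenase of neutrophils, was lowest in NonVen21. It averaged 1530.4 ± 191 in Ven100, 1022 ± 188 in Ven21, 1310.5 ± 149 in NonVen100 and 624.6 ± 34.3 in NonVen21. Ven100 exceeded NonVen21 by 1.24 (adjusted p = 0.00377) and NonVen100 exceeded it by 1.02 (adjusted p = 0.00803). With the lot block these Mmp8 changes were 1.27 (adjusted p = 0.0026) and 1.24 (adjusted p = 0.0559). Adam17, the sheddase that Timp3 inhibits, averaged 1665 ± 487 in Ven100 and 768.7 in Ven21, a difference of 1.05 (adjusted p = 0.00747), and 0.71 (adjusted p = 0.0908) with the lot block. Bsg, which induces metalloproteinases in stromal cells, averaged 7877 in Ven100 and 11103 in Ven21, a change of -0.49 (adjusted p = 0.0135), and -0.42 (adjusted p = 0.076) with the lot block. Cd63, a surface partner of Timp1, averaged 6635 in Ven100 and 9567 in Ven21, a change of -0.53 (adjusted p = 0.0123), and -0.42 (adjusted p = 0.0767) with the lot block. Bsg and Cd63 are bright, and the 99th percentile of intensity was 7111 to 8353 on the Ven100 arrays against 9934 to 14547 elsewhere. The part of scaling in their changes was not tested. Itgb1, an integrin chain that binds matrix, averaged 6154.5 in Ven100 and 6433 in Ven21, against 8830.5 in NonVen100 and 9322.5 in NonVen21, and fell with ventilation averaged over oxygen (-0.53, adjusted p = 0.00999).

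**Figure D3:**
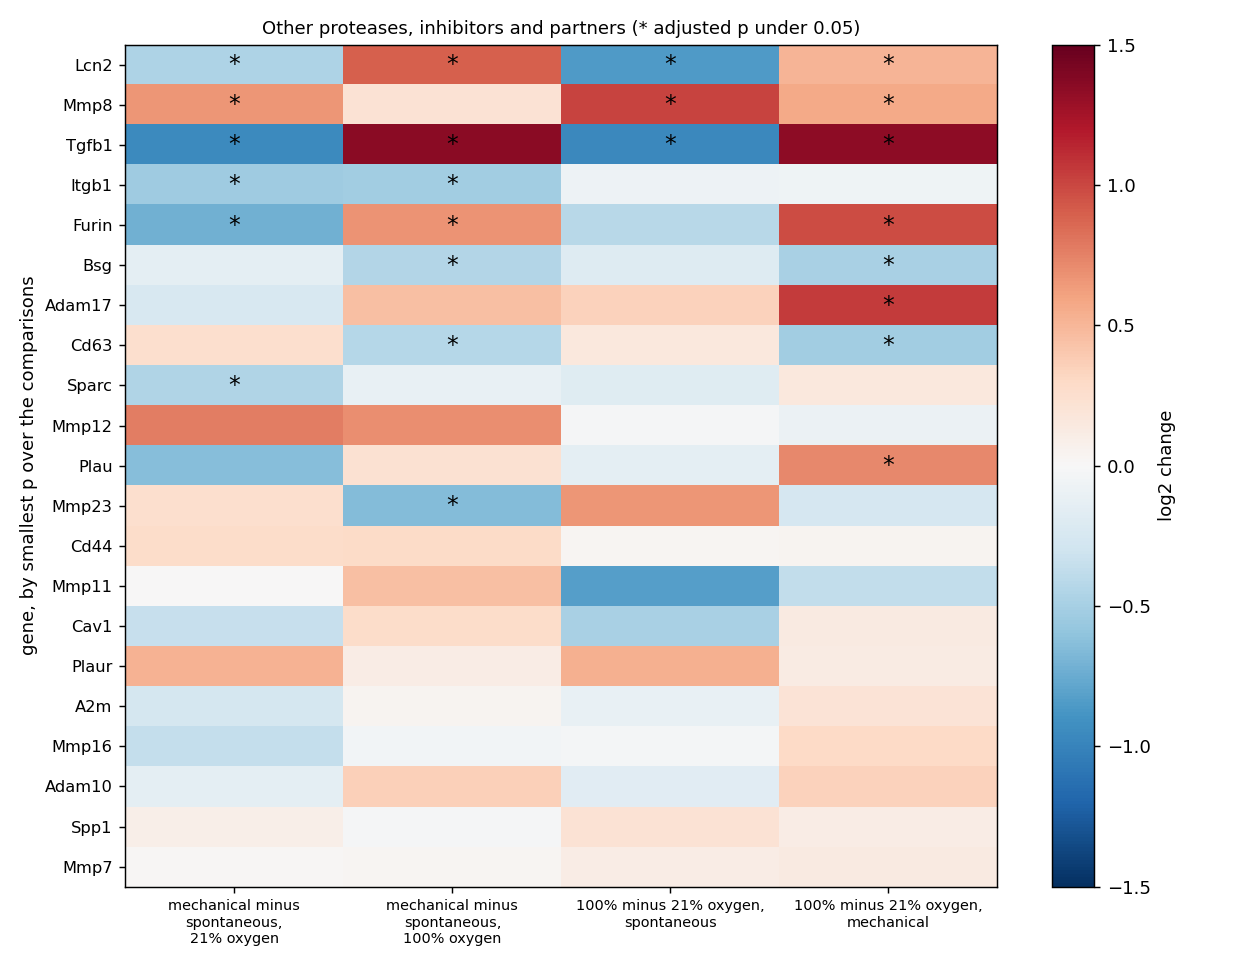
Log2 change (colour) of the 21 tested genes of the pathway list, one row each, in the 4 simple comparisons (columns); stars mark an adjusted p under 0.05. Tgfb1, Furin and Lcn2 are higher with ventilation at 100% oxygen and lower with ventilation at 21% oxygen. With the lot line as a block, no decrease at 21% oxygen was called (adjusted p = 0.249 for Tgfb1, 0.241 for Furin and 0.224 for Lcn2). The increase of Furin at 100% oxygen was then not called either (adjusted p = 0.0886).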

How the data were processed

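The deposited values are intensities per probe set, used as the authors gave them; the software and settings that made them are not given in the sources used here. From the values, every array shared a trimmed mean near 801, and 18.4 to 19.9% of probe sets were at or below 0. The 59 control probe sets were left out. Values below 0 were set to 0, 40 was added and log2 taken, and of the remaining 8740 probe sets the dimmest 40% by mean were set aside, so 5244 were tested. Both arrays of Ven100 b were averaged and counted as 1 sample in the main fit. With the lot line as a block, the 9 arrays were fitted apart.

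A group-means model over 8 samples (4 residual degrees of freedom) was run in limma 3.58.1 (R 4.3.3), using eBayes with a variance trend. Each of 9 contrasts was adjusted by itself over all tested probe sets (Benjamini-Hochberg). The procedure was tested on simulated data. The number of arrays limits the precision. Members were all probe sets with the single symbol of a named gene, and pathway genes with values were the 8 of smallest p in the list. Each pathway and marker gene was read from its brightest probe set alone. The members and lists were chosen with earlier results of these data known. Symbols came from the platform annotation (1 symbol for 7006 probe sets, several for 308, none for 1426), of which 6985 were matched to the current gene table. Likeness is Pearson's r of log2 values, a description with no test. Plots used matplotlib 3.10.9 under Python 3.11.15.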

Additional observations from a re-analysis of the deposited data

Results flagged for a closer look

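The change of Mmp2 U65656_at with ventilation differed between the oxygen levels by 1.87 on the log2 scale, by the interaction term of the limma fit: it was higher with ventilation at 100% oxygen and lower at 21% oxygen. The change of Mmp14 X83537_at with ventilation differed between the oxygen levels by 1.41 by the same test. With the lot line as a block, the Mmp14 interaction was 0.54 and not called (adjusted p = 0.714). With that block the decrease of Mmp2 U65656_at at 21% oxygen also lost its call (-0.82, adjusted p = 0.123). The interaction of the other Mmp2 probe set, X71466_at, was 0.25 and not called in the limma fit (adjusted p = 0.426).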

How the results depend on the processing

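The 11 called member values were recomputed 212 times under other settings, of which 157 kept the call and 55 lost it. The 61 values not called were recomputed 1172 times, of which 21 gained a call, and 0 reversed a called direction. As fitted, the numbers of members called were 2 for ventilation at 21% oxygen, 2 at 100% oxygen, 1 for oxygen in spontaneous breathing, 2 in mechanical ventilation, 1 for oxygen averaged, 2 for the interaction and 1 for Ven21 against NonVen100. Ventilation at 100% oxygen called 1 without the filter, with array s2A alone for Ven100 b, with the replicate block, with the lot line as a block, with the groups compared alone and with the 5 arrays without the lot line, which also gave 1 for oxygen in mechanical ventilation. Ventilation at 21% oxygen called 0 with the lot block, and 1 without the trend or with the groups compared alone. Oxygen in spontaneous breathing called 0 without the filter and with the lot block. Oxygen averaged called 2 under quantile normalization, without the filter, with array s2B alone and with the lot block, and 0 with the replicate block and without the trend. The interaction called 1 without the filter and with the lot block, and Ven21 against NonVen100 called 2 under quantile normalization. With 1 sample left out in turn, the counts ran from 0 to 2 for ventilation at 21%, 1 to 2 at 100%, 0 to 1 for oxygen in spontaneous breathing, 1 to 3 in mechanical ventilation, 0 to 1 averaged, 1 to 2 for the interaction, 0 to 1 for Ven100 against NonVen21 and 0 to 1 for Ven21 against NonVen100. The cause was not tested. Over all probe sets the calls ran from 106 to 821 for ventilation at 21% oxygen, where the main count was 760, and from 151 to 1491 for the interaction, where it was 1439, both lowest with the lot block. The letters a and b do not pair samples by any label, and deviations of same-lettered samples correlated at -0.128 to 0.066 between groups, so the replicate block is given only here. The 3 fits on arrays with or without the lot line alone, and the lot block for pathway genes, were chosen after seeing the data. With 2 samples a group, 1 sample can decide a call.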
